A study of Homo sapiens with 2 samples.

Results

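Described here are 8 genes of the route from phosphoinositide 3-kinase (PI3K) to the AKT kinases: PIK3CA, PIK3CB, PIK3R1, PIK3R2, PDPK1, AKT1, AKT2 and PHLPP1. They were picked by name from the 38637 genes listed, with earlier results of these data known. All 8 were found and reached the expression filter. It asks for an average over both libraries of 1 CPM (counts for every 1000000 in the library) or more. The libraries were made from H1299, an established human non-small cell lung cancer line, in cells whose genotype is labelled wild type. The control library has the treatment label none and a title ending in nc, and the other library is labelled as PHF12 knockdown (KD), with the prefix si in its title; the oligonucleotide used, and whether control cells received any, are not known from the labels. There was 1 library per group, so no difference below has a replicate check, no test of the conditions was possible, and each 95% interval covers counting error only.

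The series title places PHF12, a PHD finger protein of a Sin3 and HDAC corepressor complex, upstream of HDAC1 and of EGFR and AKT signalling. A class IA PI3K is a catalytic subunit held by a regulatory subunit, which docks on phosphorylated receptors and adaptors and restrains the enzyme until then. The active enzyme makes the membrane lipid phosphatidylinositol trisphosphate, to which PDPK1 and the AKT kinases bind through their PH domains. PDPK1 then phosphorylates AKT in its activation loop, mTORC2 phosphorylates its C-terminal tail, and phosphatases such as PHLPP1 remove the tail phosphate. These steps act on protein and lipid, and the libraries measure transcripts only.

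The libraries held 24740581 counts (control) and 26084594 counts (knockdown), and 14559 genes passed the filter. PHF12 had 947 counts (control) and 756 counts (knockdown), a ratio of 0.753 (95% counting interval 0.683 to 0.829), so that the transcript named in the knockdown label was lower but far from absent. HDAC1 stood at 1.39 times the control level and EGFR at 0.857 times. The reference genes give a scale for differences between these cultures: 14 of them had log2 ratios from −0.38 to 0.22. On the same scale PHF12 stood at −0.41 (−0.55 to −0.27), close to the lowest of them. Keratin and vimentin genes of a carcinoma line were abundant, with a summed 8837 and 7682 TPM (transcripts per 1000000) for 5 markers, although EPCAM had only 1.38 and 1.74 TPM. PTPRC and CD3E of leukocytes and HBB of red cells were at 0 in both libraries, while CD68, listed as a leukocyte marker but a lysosomal gene of many cell types, had 257 and 320 TPM.

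Between the libraries the 8 genes differed little. AKT1 and PIK3CA were higher in the knockdown library, at 1.15 and 1.13 times the control level, and PIK3R2 and AKT2 were lower, at 0.883 and 0.942 times. The counting intervals of these 4 genes excluded no difference. Those of PIK3CB, PIK3R1, PDPK1 and PHLPP1 included it. None of the 8 was at least 1.2-fold higher, against 10.3% of all genes tested, and none was at least 1.2-fold lower, against 11.7%. At least 1.1-fold higher were 2 of the 8 (AKT1 and PIK3CA), against 23.2% of all genes tested, and at least 1.1-fold lower was 1 (PIK3R2), against 25.1%, so neither count stands above the background. Intervals that excluded no difference were common at this depth, at 41.1% of all genes tested, so 4 of 8 is close to that share. The median absolute log2 ratio was 0.09 over the 8 genes and 0.13 over all genes tested, both computed with 0.5 CPM added. These medians are not at like level, since the 8 had means from 17.8 to 337 CPM and the filter admits genes from 1 CPM. Among genes within 2-fold of a member's mean CPM, the share with a larger absolute log2 ratio was 17.0% for AKT1, 24.7% for PIK3R2 and 28.2% for PIK3CA. It was 48.9% for AKT2, 59.1% for PIK3R1, 82.4% for PHLPP1, 93.3% for PIK3CB and 96.0% for PDPK1.

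A stretch of the AKT1 3′ UTR is shown because it holds a word that was looked for in all 8 genes; whether it has any part in the AKT1 difference was not tested. Looked for were 4 words of 7 bases, chosen with earlier results of these libraries known. Protein-coding genes with ACATCGA or CATCGAA in the 3′ UTR had median log2 ratios of −0.10 and −0.10 here, and those with TCGGAGA or ATCGGAG had medians of 0.07 and 0.07. The letters were searched on the transcript strand only, in the longest 3′ UTR of the protein-coding transcripts of each gene (GENCODE release 29). The words of a pair overlap each other in sequence. At least 1 of the 4 words was found in 5.58% of 12322 protein-coding genes with such a UTR and in 1 of the 8 genes, AKT1, so a single holder says nothing particular about the 8. AKT2, its closest paralog here, held none in a 3′ UTR of 3555 bases. The 30-base window below is in the AKT1 3′ UTR, on chromosome 14 between 104769785 and 104769814 of the minus strand (GRCh38), with the word in capitals.
AKT1: ctgaggacgtcATCGGAGgctgggcccctg
The word starts at base 538 of a 3′ UTR of 992 bases, and 6 of 10 AKT1 protein-coding transcripts hold it after their stop codon. ATCGGAG alone was present in 1.54% of the same protein-coding genes. ACATCGA was present in 1.66%, CATCGAA in 1.63% and TCGGAGA in 2.11%. The log2 ratios of the 190 holders of ATCGGAG had quartiles of −0.06 and 0.22, and 63.7% of them lay above 0. The genes without it had a median of −0.01. The word was chosen on these same libraries, so these values are a description of them, and a match of letters is not a binding site.

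The levels came first, in TPM, which is scaled by gene length and so allows genes to be compared. AKT1 was the most abundant of the 8, with 151 TPM in the control library (147.8 to 155) and 178 TPM in the knockdown library (174 to 182). AKT2 followed with 113 and 108 TPM, and PIK3R2 with 112 and 100.2 TPM. These 3 genes lay between the 87.8th and the 93.4th percentile of the genes tested in either library. PIK3CB had 40.5 and 41.6 TPM, and PIK3CA had 15.5 and 17.8 TPM. PDPK1 stood at 15.0 and 15.1 TPM, PIK3R1 at 7.98 and 8.70 TPM, and PHLPP1 at 7.18 and 7.07 TPM. The PDPK1 and PHLPP1 transcripts were thus each far less abundant than that of AKT1. The order of the 8 genes was the same in both libraries. In the control library the counting intervals of AKT2 and PIK3R2, of PIK3CA and PDPK1, and of PIK3R1 and PHLPP1 overlapped, so these neighbours could not be ordered there. In the knockdown library no neighbours overlapped.

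**Figure D1:**
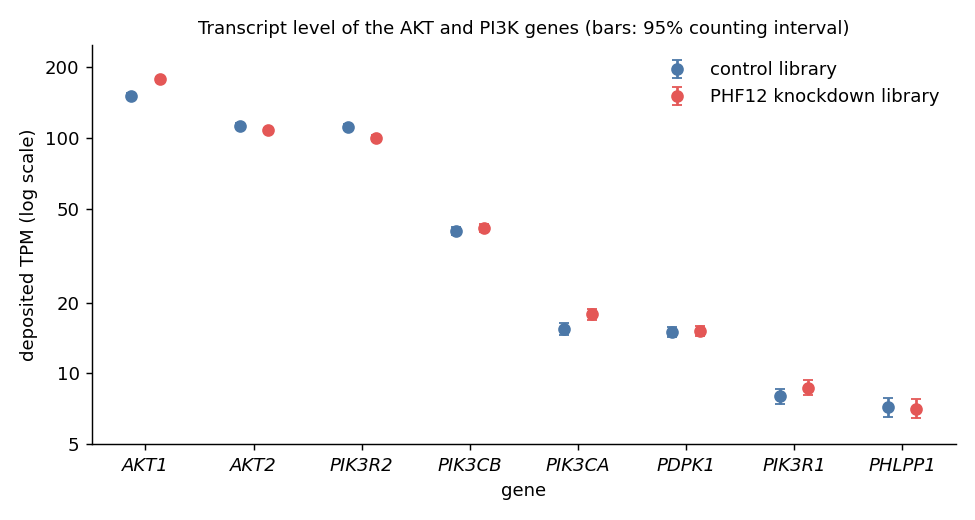
Deposited TPM (log scale) of the 8 genes in the control and the PHF12 knockdown library, with bars for the 95% counting interval of each single library. AKT1 stands at 151 TPM in the control and 178 TPM in the knockdown library, and the order from AKT1 down to PHLPP1 is the same in both.

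Of the catalytic subunits, PIK3CA encodes the alpha isoform, which couples to receptor tyrosine kinases and is often mutated in cancers, and PIK3CB encodes the beta isoform, which also takes signals from G protein-coupled receptors. PIK3CA, on chromosome 3 between 179148114 and 179240093 of the plus strand (hg38, as the table gives it), had 1313 counts (control) and 1577 counts (knockdown). Its log2 ratio was 0.18 (0.07 to 0.29), and 37.8% of all genes tested had a larger absolute value. Among the 5075 genes within 2-fold of its mean CPM, 28.2% had a larger one. PIK3CA has a partial pseudogene copy elsewhere in the genome, and its 3′ end overlaps KCNMB3 on the other strand by 391 bases, a gene with 135 and 123 counts. PIK3CB, on chromosome 3 between 138652698 and 138834928 of the minus strand, had 2442 (control) and 2614 (knockdown) counts, and its log2 ratio was 0.01 (−0.07 to 0.09). The beta transcript was thus level to within its counting error, and at 72.4% of the pair's summed TPM in the control library it was the more abundant of the pair.

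The regulatory subunit genes lay on opposite sides of 0. PIK3R1 encodes the alpha regulatory subunit and PIK3R2 the beta regulatory subunit, both with SH2 domains that bind phosphotyrosine. PIK3R1, on chromosome 5 between 68215737 and 68301821 of the plus strand, had 684 (control) and 777 (knockdown) counts, and its log2 ratio was 0.10 (−0.05 to 0.25). PIK3R2, on chromosome 19 between 18153163 and 18170532 of the plus strand, had 4000 (control) and 3746 (knockdown) counts, and its log2 ratio was −0.18 (−0.24 to −0.11), the lowest of the 8. Protein-coding genes within 2 percentage points of its GC content, 64.2%, had a median log2 ratio of −0.10, against −0.01 over all protein-coding genes tested. With that median subtracted PIK3R2 stood at −0.076, and the part of GC content in its difference was not tested beyond this.

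PDPK1 and PHLPP1, which act on AKT in opposite directions, were both close to level. PDPK1, the kinase of the AKT activation loop, lies on chromosome 16 between 2538014 and 2603190 on the plus strand and had 1627 and 1716 counts. Its log2 ratio was −0.01 (−0.11 to 0.09). PDPK1 has a near-identical copy on the same chromosome, PDPK2P, so the assignment of its reads is uncertain. PHLPP1, a PH domain and leucine-rich repeat phosphatase, lies on chromosome 18 between 62715445 and 62980433 on the plus strand and had 445 and 457 counts, the fewest of the 8. Its log2 ratio was −0.05 (−0.24 to 0.15), a counting interval that reached from 0.848 to 1.11 times the control level.

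The AKT kinases lay on opposite sides of 0. AKT1 is the widely expressed member linked to growth and survival, and AKT2 is the member best known for insulin-driven glucose uptake. AKT1, on chromosome 14 between 104769349 and 104795748 of the minus strand, had 6615 counts (control) and 8094 counts (knockdown). Its log2 ratio was 0.21 (0.16 to 0.25), the highest of the 8, and 31.7% of all genes tested had a larger absolute value. Among the 1270 genes within 2-fold of its mean CPM, where counting noise is alike, 17.0% had a larger one. AKT2, on chromosome 19 between 40230317 and 40285531 of the minus strand, had 8559 (control) and 8548 (knockdown) counts, and its log2 ratio was −0.09 (−0.13 to −0.04). Nearly equal counts give a negative ratio here because the knockdown library was deeper. AKT2 has more counts than AKT1 in both libraries but a lower TPM, since its listed length is 8503 bases against 4914.

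An overlapping gene and GC content stand beside the AKT1 difference. The 3′ end of AKT1 overlaps the long non-coding gene LOC102723342 on the other strand by 780 bases, and that stretch includes the window printed above. LOC102723342 had 1387 (control) and 1655 (knockdown) counts, and its log2 ratio was 0.17 (0.07 to 0.27). The strand setting of the counting is not given in the sources used here, so reads of this pair within the shared 780 bases cannot be told apart. The GC content of AKT1 is 62.1%, at which protein-coding genes had a median log2 ratio of −0.08. With the median at each gene's own GC content subtracted, AKT1 stood at 0.29, past 1.2-fold, and AKT2 at −0.030. The part of GC content in these differences was not tested beyond this. This subtraction was chosen after the data were seen.

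**Figure D2:**
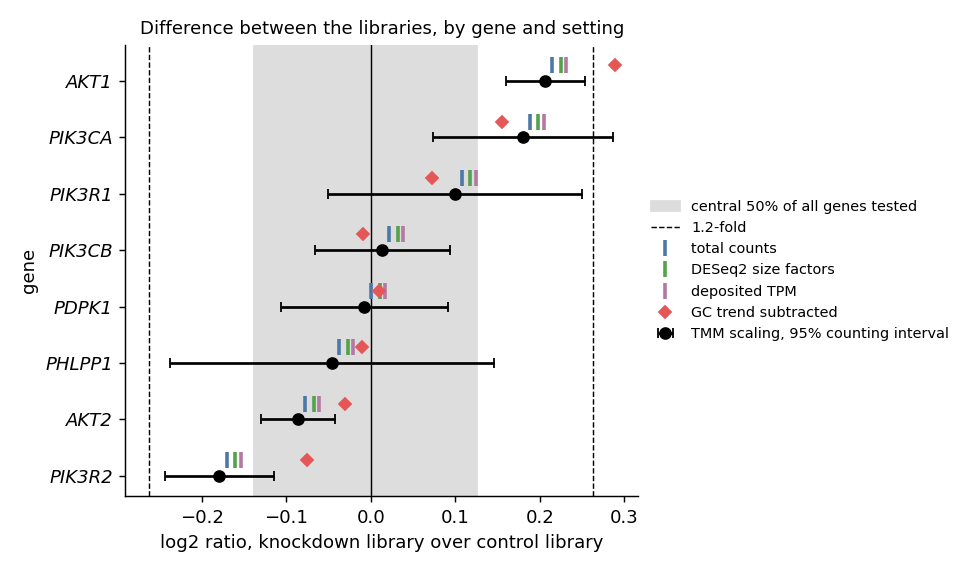
Log2 ratio of the knockdown over the control library for the 8 genes (black points with 95% counting intervals), with the values under other scalings and with the GC trend subtracted as coloured marks, the central 50% of all genes tested in grey and dashed lines at 1.2-fold. AKT1 and PIK3CA lie right of the grey band and PIK3R2 left of it; AKT1 passes the dashed line only with the GC trend subtracted, at 0.29.

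**Figure D3:**
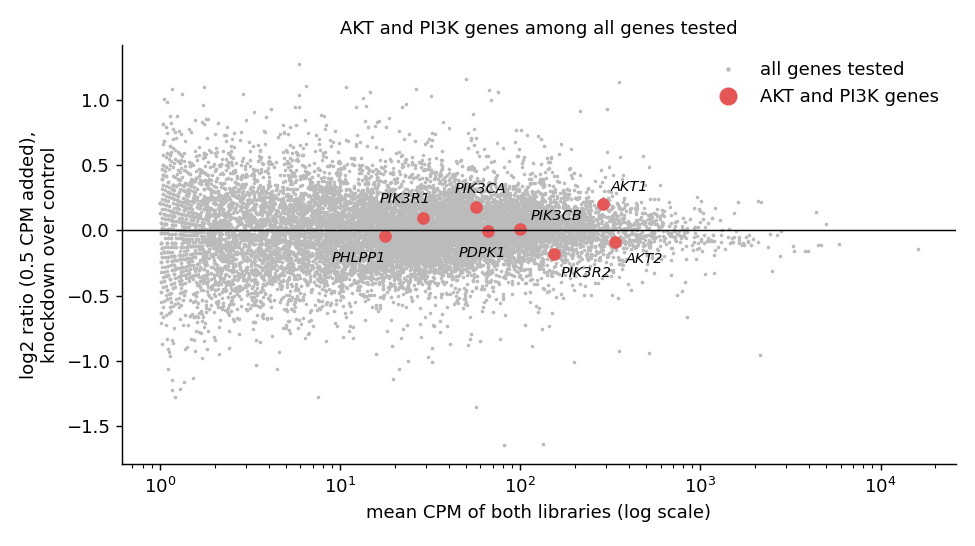
Log2 ratio (0.5 CPM added) against mean CPM (log scale) for the 14559 genes tested in grey and the 8 genes in red. The 8 genes span −0.18 to 0.21 and sit inside the cloud of genes at their own level.

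A ratio of 2 genes within a library does not depend on the scaling between libraries, so the paralogs were set against each other. AKT1 took 57.2% of the summed AKT1 and AKT2 TPM in the control library (56.4 to 58.0) and 62.1% in the knockdown library (61.4 to 62.8), and these intervals did not overlap. The AKT1 to AKT2 ratio was 1.23 times as large in the knockdown library (1.17 to 1.28). PIK3CA took 27.6% of the catalytic pair in the control library (26.3 to 29.0) and 30.0% in the knockdown library (28.7 to 31.3), a change of ratio of 1.12 times (1.02 to 1.23). PIK3R1 took 6.68% of the regulatory pair (6.18 to 7.20) and 7.99% (7.43 to 8.58), a change of 1.21 times (1.08 to 1.36). In each of the 3 pairs the first-named gene therefore held a larger share of its pair in the knockdown library. Whether this common direction has any meaning was not tested. The pairs leave out other isoforms, such as PIK3R3 with 22.0 TPM (control) and 19.4 TPM (knockdown). How far other pairs of genes moved was not computed. Of single genes tested, 41.1% had intervals that excluded no difference, so the shifts are not shown to be particular to these pairs. With the GC trend subtracted the log2 changes of the ratios were 0.32 for the AKT pair, 0.16 for the catalytic pair and 0.15 for the regulatory pair, against 0.29, 0.17 and 0.28 without it. GC content differs within the regulatory pair, at 40.3% for PIK3R1 and 64.2% for PIK3R2, far more than within the AKT pair, at 62.1% and 58.3%.

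**Figure D4:**
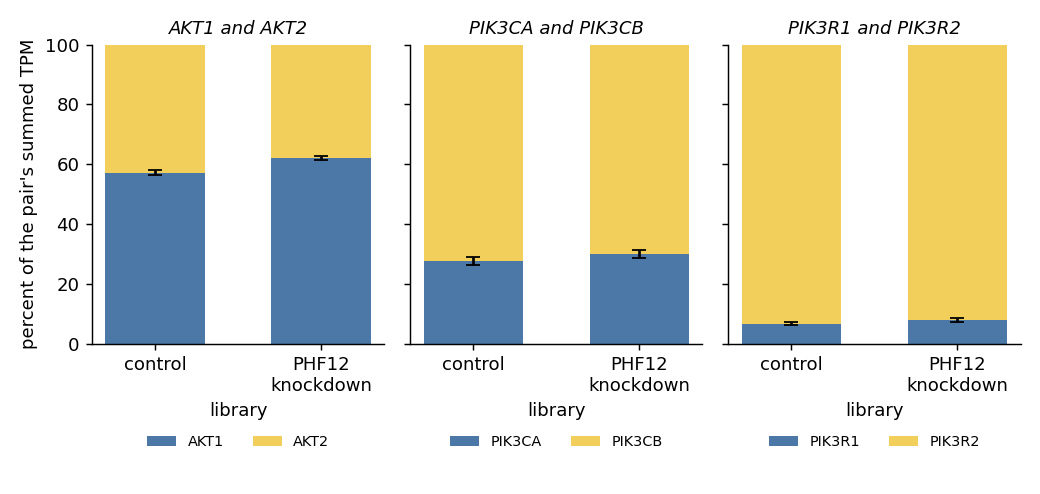
Share of each paralog in the summed TPM of its pair (percent), in the control and the PHF12 knockdown library, with bars for the 95% counting interval. AKT1 goes from 57.2% to 62.1% of its pair, PIK3CA from 27.6% to 30.0% and PIK3R1 from 6.68% to 7.99%.

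AKT1 and AKT2 together had 265 TPM in the control and 286 TPM in the knockdown library, or 17.7 and 18.9 times the level of PDPK1.

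Around the 8 genes, 87 other pathway genes in 8 lists were looked up by role, and 75 reached the expression filter. At least 1.2-fold higher were 3 of them, or 4.0%, against 10.3% of all genes tested, and at least 1.2-fold lower were 11, or 14.7%, against 11.7%. Their median log2 ratio was −0.04, against −0.01 over all genes tested. List medians and list counts use ratios with 0.5 CPM added, and the ratios of named genes carry none.

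Other PI3K genes varied about as much as the 8. Of the other class I subunits 3 of 5 were measured and none passed 1.2-fold, with the regulatory subunit PIK3R3 at −0.21 (−0.33 to −0.09). Of the class II and III genes 4 of 5 were measured, and PIK3R4, which encodes the scaffold subunit of the class III enzyme, was higher at 0.27 (0.18 to 0.36), with its catalytic partner PIK3C3 at 0.17 (0.06 to 0.29). Among adaptors and AKT partners 9 of 11 were measured and 1 was at least 1.2-fold lower, IRS2, with 95 and 77 counts. There the adaptor gene FRS2 stood at −0.25 (−0.37 to −0.13).

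The genes that restrain the pathway differed in both directions. Of 9 lipid phosphatases measured, 2 were at least 1.2-fold lower and none higher, with a list median of −0.16. INPP5K, an inositol polyphosphate phosphatase, had 976 and 722 counts and stood at −0.52 (−0.66 to −0.38), INPP5E of the primary cilium at −0.36 (−0.47 to −0.24), and the synaptojanin gene SYNJ2 at −0.24 (−0.30 to −0.18). Of 12 AKT phosphatases and pathway inhibitors measured, 1 was at least 1.2-fold higher (PPP2R2A) and 3 lower (PIK3IP1, TRIB3 and PPP2R2C, the last on 95 and 79 counts). PPP2R2A, a regulatory subunit of the phosphatase PP2A, had 1056 and 1568 counts and stood at 0.49 (0.37 to 0.60). PIK3IP1, a membrane inhibitor of PI3K, stood at −0.58 (−0.95 to −0.23) on 157 and 111 counts, and TRIB3, a pseudokinase that binds AKT and is induced by ATF4, at −0.41 (−0.48 to −0.33).

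The mTORC2 subunits, the AKT substrates and the other kinases that PDPK1 activates were mostly near level. Among 6 mTORC2 subunits measured MLST8, which is shared with mTORC1, was lower at −0.50 (−0.62 to −0.39), and MAPKAP1, which is specific to mTORC2, stood at 0.16 (0.12 to 0.20). Of 20 AKT substrates measured 1 was at least 1.2-fold higher (GSK3B) and 3 lower (BAD, CDKN1A and FOXO1, the last on 93 and 75 counts), with a list median of −0.02. The kinase gene GSK3B stood at 0.29 (0.20 to 0.37), the pro-apoptotic gene BAD at −0.31 (−0.44 to −0.19) and the cell cycle inhibitor gene CDKN1A at −0.31 (−0.37 to −0.25). Of 12 other kinases that PDPK1 activates, 1 was at least 1.2-fold lower: SGK1, a relative of AKT, had 1303 and 952 counts and stood at −0.54 (−0.66 to −0.42). PRKCZ stood at −0.26 (−0.38 to −0.14) and RPS6KA3 at 0.26 (0.18 to 0.33), both just short of 1.2-fold with 0.5 CPM added. The counting intervals of IRS2, PPP2R2C and FOXO1 included no difference.

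**Figure D5:**
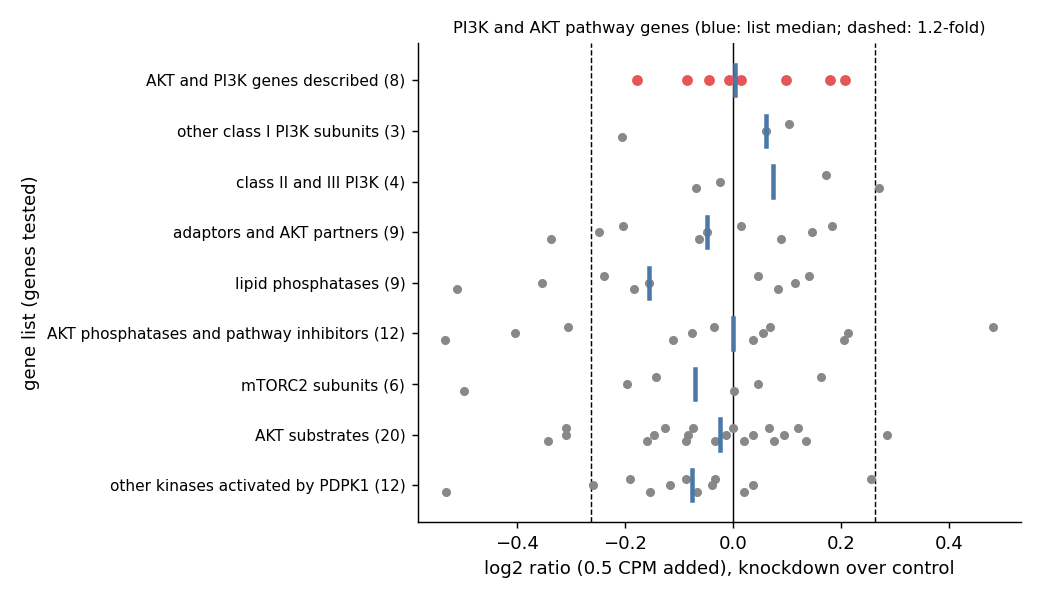
Log2 ratio (0.5 CPM added) of the 8 genes (red) and of 75 other pathway genes (grey) by list, with the list median as a blue bar and dashed lines at 1.2-fold. The 8 genes span −0.18 to 0.21, while single genes of other lists reach −0.53 (PIK3IP1) and 0.48 (PPP2R2A).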

How the data were processed

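RNA was poly(A)-selected and made into libraries with a NEBNext Ultra kit, per the labels' protocols. HISAT2 served for alignment to hg38 and HTSeq for counting, per the submitters' processing notes; neither a version nor a strand setting is given in the sources used here. The authors deposited raw counts and TPM per gene, per the file headers. No line lacked a gene name.

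From the counts, TMM factors were computed with edgeR 4.0.16 (R 4.3.3). Ratios of the 8 genes carry no pseudocount, and their 95% intervals are exact conditional (Clopper-Pearson) intervals for 2 Poisson counts. Changes of a ratio between paralogs are conditional odds ratios with exact intervals, and TPM intervals are exact Poisson intervals. Since each group has 1 library, p-values were not computed and genes were counted by size. The intervals were tested on simulated data. GC content was that of the longest GENCODE transcript, available for 97.7% of 12669 protein-coding genes tested, and its trend was the median log2 ratio of genes within 2 percentage points. Members and lists were chosen with earlier results of these data known. Named from each list were up to 3 genes with the largest absolute log2 ratio, a mean of at least 5 CPM and an interval that excludes no difference; 1 gene so selected is not reported here. IRS2, PPP2R2C, FOXO1, LOC102723342, KCNMB3, EPCAM, CD68 and the markers at 0 were named after their values were seen. Alternatives were other scalings (total counts, DESeq2 1.42.0, upper quartile), TPM, a pseudocount, thinning, other filters and folds. Computation used Python 3.11.15 with scipy 1.17.1.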

Additional observations from a re-analysis of the deposited data

How the results depend on the processing

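No paired analysis was possible because each group has 1 library, and for the same reason no library could be left out. The log2 ratios of the 8 genes stayed within their counting intervals in 53 of 56 recomputations. The exceptions were those with the GC trend subtracted, an alternative chosen after the data were seen, at 0.29 for AKT1, −0.076 for PIK3R2 and −0.030 for AKT2. With it 1 gene, AKT1, was at least 1.2-fold higher. At a threshold of 1.1-fold 2 genes were higher (AKT1 and PIK3CA, against 23.2% of all genes tested) and 1 lower (PIK3R2, against 25.1%), by the construction of a lower threshold. PIK3CB and PDPK1, whose intervals span 0, changed sign between settings, from −0.01 to 0.04 and from −0.03 to 0.02. The 3 changes of paralog ratio stayed within their intervals with the GC trend subtracted, though that of the regulatory pair went from 0.28 to 0.15 in log2. They also stayed with TPM and thinning. These 2 settings say little here, because TPM leaves such a ratio nearly the same by construction and thinning redraws the same library. Depth limits PHLPP1 and PIK3R1 most.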
